A study of Rattus norvegicus with 9 samples.

Results

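The pyruvate dehydrogenase complex and its regulating enzymes were followed in denervated rat muscle through 8 genes. They were Pdha1, Pdhb, Dlat and Pdhx, which encode parts of the complex, the kinases Pdk1, Pdk2 and Pdk4, and the phosphatase Pdp1. The genes were chosen by name, with earlier results of these data known. They were found by matching the NCBI gene IDs of the files to RefSeq rat symbols. All 8 were present among the 13752 gene IDs measured, and all 8 passed the filter on low counts that left 10129 genes for testing. Their expected counts (reads assigned to a gene, not always whole numbers) lay between 156 for Pdk1 and 8016 for Pdk2 in a single library.

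The tissue was the gastrocnemius, the large calf muscle, from male rats 8 weeks old. DN-SM muscle (n = 3) had a sciatic nerve injury and daily electrical stimulation through skin electrodes for 4 weeks, at 25 V, 1 mA and 2 Hz with pulses of 300 ms. DN muscle (n = 3) had the same injury and SHAM muscle (n = 3) a sham operation. Rats of all 3 groups were anaesthetised and fitted with electrodes, which carried current in DN-SM only. The labels do not give the strain, the type of nerve injury, the time at which DN and SHAM muscle was taken, the feeding state, or whether each library came from its own animal, so the p-values measure the spread between these libraries, which may be technical.

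The pyruvate dehydrogenase complex sits in the mitochondrial matrix and turns pyruvate from glycolysis into acetyl-CoA for the citric acid cycle. Pyruvate dehydrogenase kinases switch it off by phosphorylating its Pdha1 subunit, and pyruvate dehydrogenase phosphatases switch it on again. In skeletal muscle Pdk4 is known as the kinase induced by fasting, fatty acids and glucocorticoids, through PPAR and FoxO transcription factors among others, which spares glucose while fat is burned.

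Promoter sequences are shown for Pdk4, Pdk2 and Pdha1, the genes on which the comparisons below turn. Each line gives 250 bases before to 50 bases after the transcript start, 5′ to 3′ on the gene's strand, from RefSeq on build GRCr8. The windows are chr4:34568280-34568579 on the minus strand for Pdk4, chr10:80483863-80484162 on the minus strand for Pdk2, and chrX:38508908-38509207 on the plus strand for Pdha1. Capitals mark CCAAT boxes and GC boxes (GGGCGG), on either strand.
Pdk4: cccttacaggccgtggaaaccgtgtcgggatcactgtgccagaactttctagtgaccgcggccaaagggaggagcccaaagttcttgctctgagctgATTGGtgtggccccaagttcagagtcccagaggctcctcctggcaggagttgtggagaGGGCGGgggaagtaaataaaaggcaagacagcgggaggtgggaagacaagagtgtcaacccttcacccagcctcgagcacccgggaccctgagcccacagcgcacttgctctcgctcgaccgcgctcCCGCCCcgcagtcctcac
Pdk2: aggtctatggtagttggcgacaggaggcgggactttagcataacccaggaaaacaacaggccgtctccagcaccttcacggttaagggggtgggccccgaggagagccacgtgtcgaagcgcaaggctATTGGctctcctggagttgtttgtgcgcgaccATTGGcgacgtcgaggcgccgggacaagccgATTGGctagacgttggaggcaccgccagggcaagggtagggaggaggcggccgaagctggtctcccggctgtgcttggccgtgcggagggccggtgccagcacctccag
Pdha1: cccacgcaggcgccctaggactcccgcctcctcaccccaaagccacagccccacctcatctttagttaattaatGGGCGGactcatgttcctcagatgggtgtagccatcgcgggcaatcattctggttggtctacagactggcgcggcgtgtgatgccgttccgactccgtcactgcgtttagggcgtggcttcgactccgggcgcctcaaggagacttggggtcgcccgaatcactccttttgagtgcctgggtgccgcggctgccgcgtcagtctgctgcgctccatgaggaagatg
The Pdk4 window held 1 CCAAT box and 2 GC boxes, the Pdk2 window 3 CCAAT boxes and no GC box, and the Pdha1 window 1 GC box and no CCAAT box. Among all 33469 promoters of this length, 37.5% held a CCAAT box and 33.1% a GC box on either strand. A FoxO motif (TGTTTAC, in 3.78% of all promoters) and an estrogen-related receptor motif (AAGGTCA, in 4.61%) had no match in these 3 windows. The direct repeat bound by PPAR (AGGTCANAGGTCA, in 0.0538%), which can overlap the AAGGTCA motif, had none either. Of the 8 genes, 7 had an entry in the promoter table, and 1 of these held any of these 3 motifs, Pdhb with a FoxO motif that began 235 bases before its start. A match or its absence describes letters in this window and says nothing of binding.

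Total expected counts were 7926445 to 8893843 per library. Acta1 and Ckm, defining genes of skeletal muscle, were at 63509 to 86464.5 and 24149.9 to 31811.2 FPKM (fragments scaled to transcript length and library depth). The leukocyte marker Ptprc stayed at or under 0.29 FPKM, while the macrophage markers Csf1r and Cd68 were at 3.52 to 8.79 and 2.64 to 6.65 FPKM. SHAM replicates 2 and 3 stood apart from each other on the first principal component of log2 counts per unit of depth (CPM), at -39.09 and 9.73. On the same axis the DN-SM libraries spanned -11.51 to -8.45 and the DN libraries 22.15 to 24.53. In SHAM replicate 2 the fast myosin gene Myh4 made up 75.2% of the FPKM summed over Myh1, Myh2, Myh4 and Myh7, against 14.4% to 34.1% in the other libraries. In whole muscle, fewer cells of a type and less RNA per cell cannot be told apart.

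Pdk2 was the most abundant of the 8 transcripts per length in each group, at 284 ± 15.5 FPKM in DN-SM, 318 ± 6.93 in DN and 399 ± 27.0 in SHAM (SD, n = 3). Pdhb and Pdha1, the subunits of the dehydrogenase itself, came next. Their ranges overlapped in DN-SM and SHAM, and in DN Pdhb lay above Pdha1 without overlap. The place of Pdk4 differed between the groups. In SHAM its mean lay between those of Pdha1 and Dlat, with ranges that overlapped both. In DN and DN-SM it lay below Dlat without overlap and shared its range with Pdhx, and in DN-SM also with Pdp1. Pdp1 and Pdk1 were lowest in all 3 groups, and their ranges overlapped in DN and SHAM.

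**Figure D1:**
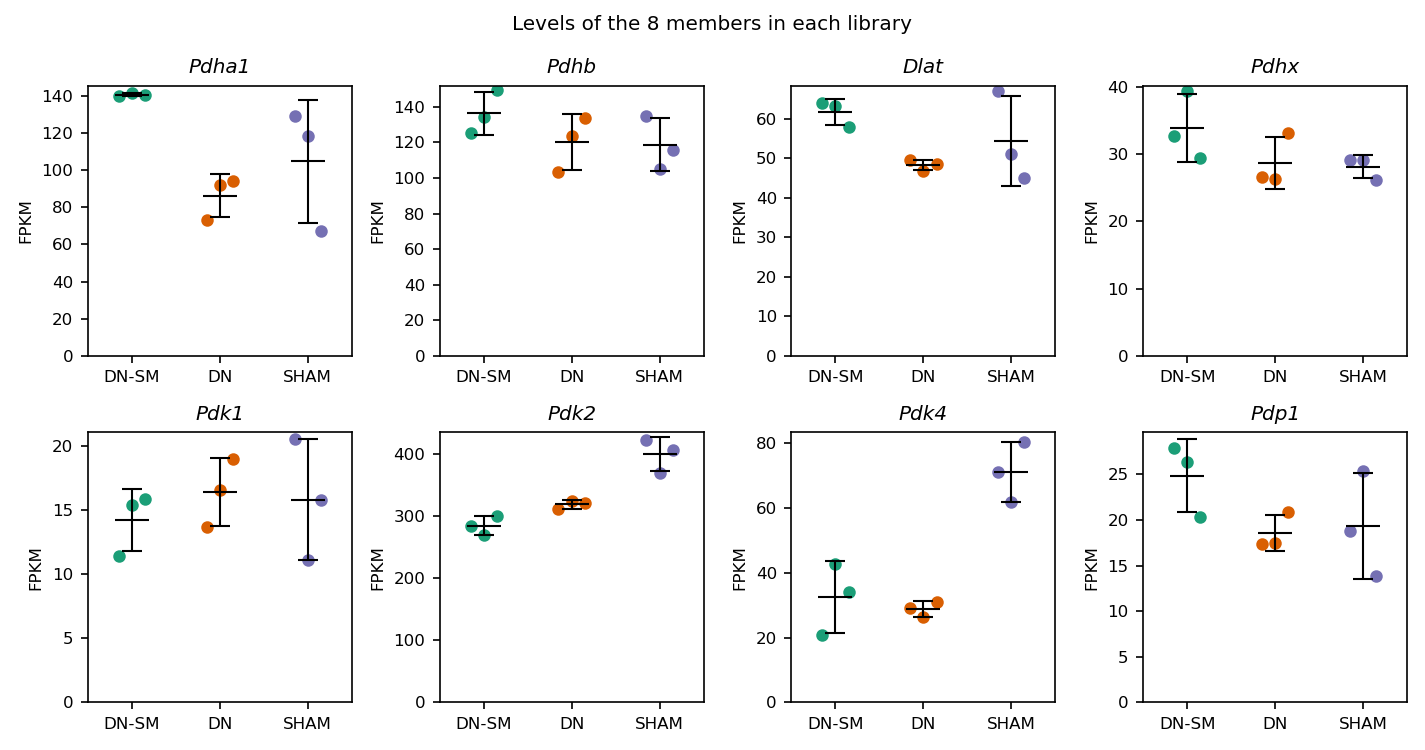
FPKM of each of the 8 genes (y axes, from 0) in the 3 DN-SM, 3 DN and 3 SHAM libraries; points are libraries, and bars give the mean ± SD. Pdk4 and Pdk2 lie below SHAM in every DN-SM and DN library, and Pdha1 is near 140 FPKM in all 3 DN-SM libraries while SHAM spreads from 67.06 to 128.78.

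The comparison of DN with SHAM addressed the effect of the nerve injury. Pdk4 was the only one of the 8 genes that passed the test, and it fell. Genes passing at an adjusted p under 0.05 made up 4.26% of the 10129 tested, and genes that passed as lower made up 1.7%. All 8 estimates lay below 0, with a median log2 fold change of -0.19 beside -0.01 for all genes tested. Of the 10129 genes tested, 4929 had an estimate above 0. Several of the 8 estimates were close to 0. The sign changed in 7 of the 20 alternative fits for Pdk1, in 4 each for Pdhb and Pdhx, and in 1 for Pdp1.

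Pdk4 (gene ID 89813) was at 29.1, 26.3 and 31.0 FPKM in DN libraries 1 to 3 and at 71.0, 61.8 and 80.2 FPKM in SHAM libraries 1 to 3. The highest DN library was thus at about 31 FPKM and the lowest SHAM library at about 62, with no overlap. In the fit the log2 fold change was -1.38 (SE 0.213, edgeR adjusted p = 0.0092), a level 61.5% lower in DN. By size it ranked 25 among the 172 genes that fell. Its log2 fold change stayed between -1.45 and -1.26 with each library left out in turn, and the call was lost without DN replicate 3 (adjusted p = 0.0525, with 0.564% of genes called in that fit).

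Pdk2, the kinase isoform found in most tissues, lay lower in DN than in SHAM but did not pass. Its levels were 311, 324 and 321 FPKM in DN and 422, 369.6 and 406 FPKM in SHAM, again without overlap. The log2 fold change was -0.40 (SE 0.105, edgeR adjusted p = 0.0538), and DESeq2 called it (-0.41, adjusted p = 0.00296, where 9% of genes with an adjusted p were called). Pdk4 and Pdk2 were the 2 of 8 genes whose FPKM did not overlap between DN and SHAM, and 22.8% of all genes tested did not overlap. Pdk1, an isoform known for its induction in low oxygen, showed no such separation, with 13.7, 16.6 and 18.9 FPKM in DN and 20.5, 11.1 and 15.7 FPKM in SHAM (log2 fold change -0.01, SE 0.183, adjusted p = 0.988).

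The subunit genes did not pass in DN against SHAM. Pdha1, which carries the sites the kinases phosphorylate, was at 72.8, 91.7 and 94.2 FPKM in DN and at 128.78, 118 and 67.1 FPKM in SHAM. SHAM replicate 3 was the lowest of all 9 libraries and SHAM replicates 1 and 2 lay above every DN library. The log2 fold change was -0.35 (SE 0.182, edgeR adjusted p = 0.286). Without SHAM replicate 3 it was -0.58 (adjusted p = 0.0101), a fit in which 11.5% of all genes were called. Dlat, the acetyltransferase core, was at -0.23 (SE 0.115, adjusted p = 0.257), Pdhb at -0.05 (0.811) and Pdhx, the protein that anchors dihydrolipoamide dehydrogenase to the core, at -0.05 (0.853). The phosphatase Pdp1 was at -0.15 (SE 0.209, adjusted p = 0.729), and at 0.16 without SHAM replicate 2.

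**Figure D2:**
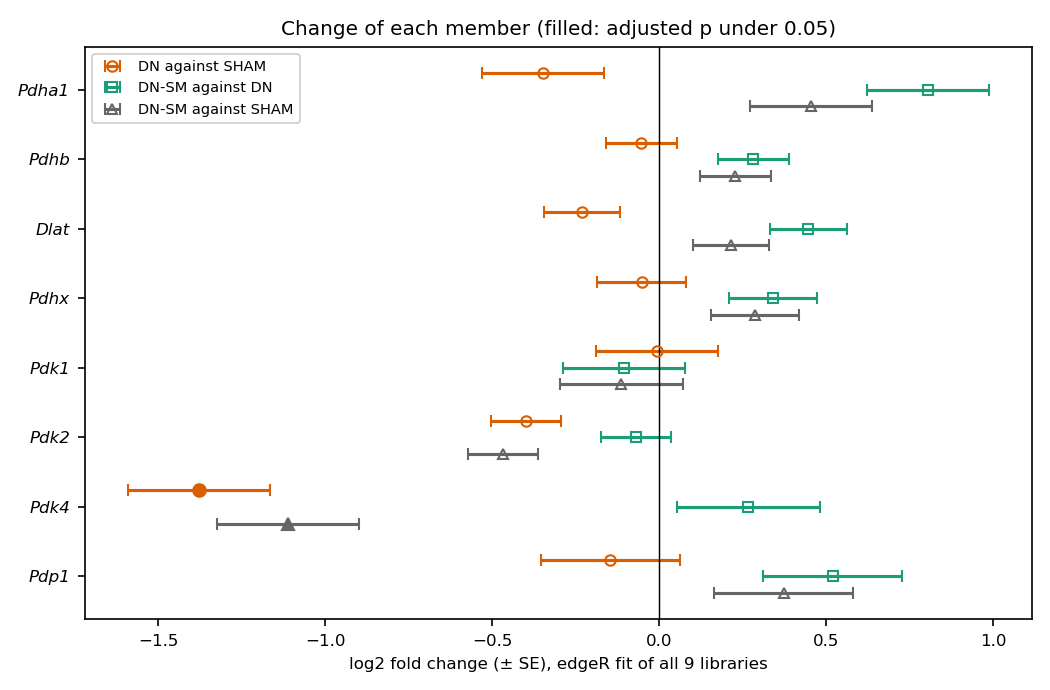
Log2 fold change with its SE (x axis) of each of the 8 genes in the 3 comparisons, from the edgeR fit of all 9 libraries; filled symbols passed at an adjusted p under 0.05. The filled symbols are Pdk4 at -1.38 in DN against SHAM and at -1.11 in DN-SM against SHAM.

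The effect of daily stimulation after injury was read from DN-SM against DN. It shares the DN libraries with the comparison above. None of the 8 genes passed in the edgeR fit of all 9 libraries, in which 1 gene of 10129 (0.00987%) passed and 1784 had an unadjusted p under 0.05. An unadjusted p under 0.05 was found for 5 of the 8, Pdha1, Dlat, Pdhb, Pdhx and Pdp1, each with a higher estimate in DN-SM. The median log2 fold change of the 8 was 0.31, beside -0.01 for all genes tested. Other fits called some of them. In the edgeR fit of DN-SM and DN alone, 3 of 8 passed as higher (Pdha1, Dlat and Pdp1), where 5.96% of genes passed as higher. With DESeq2 2 of 8 did (Pdha1 and Dlat), where 2.32% of genes with an adjusted p did.

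Pdha1 (gene ID 29554) was at 139.85, 141 and 140.25 FPKM in DN-SM and at 72.8, 91.7 and 94.2 FPKM in DN. The 3 DN-SM libraries were nearly equal, and all lay above the highest DN library. The log2 fold change was 0.80, or 1.75-fold (SE 0.183, edgeR adjusted p = 0.144). It was 0.81 in the fit of DN-SM and DN alone (adjusted p = 0.00158), 0.79 by DESeq2 (0.0129), 0.81 without SHAM replicate 2 (0.0246, with 3.29% of genes called) and 0.81 without SHAM replicate 3 (0.0068, with 4.04% called). The estimate was thus nearly the same in each of these fits, and the SE fell to 0.106 without SHAM replicate 3. Pdha1 was called in only these 4 of the 20 alternative fits, in which the adjusted p reached 0.364. Over the 20 its log2 fold change lay between 0.71 and 0.86.

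Dlat was at 64.0, 63.3 and 57.8 FPKM in DN-SM and at 49.5, 46.8 and 48.7 FPKM in DN, without overlap (log2 fold change 0.45, SE 0.115, edgeR adjusted p = 0.144; 0.0184 in the fit of DN-SM and DN alone, 0.0455 by DESeq2 and 0.0315 without SHAM replicate 3). Of the 20 alternative fits, only these 3 called Dlat. Pdhb, the beta subunit of the dehydrogenase, was at 125, 134 and 149 FPKM in DN-SM and at 103, 124 and 134 FPKM in DN. Pdhx was at 32.8, 39.4 and 29.5 FPKM in DN-SM and at 26.6, 26.2 and 33.2 FPKM in DN. For both genes the groups overlapped, with log2 fold changes of 0.28 (SE 0.106, adjusted p = 0.216) and 0.34 (SE 0.132, adjusted p = 0.223).

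Pdp1, the main muscle phosphatase of the complex, was at 27.9, 26.3 and 20.4 FPKM in DN-SM and at 17.4, 17.5 and 20.9 FPKM in DN. DN-SM replicate 3 lay inside the DN range and the other two above it. The log2 fold change was 0.52 (SE 0.208, edgeR adjusted p = 0.235), and 0.52 with an adjusted p of 0.033 in the fit of DN-SM and DN alone.

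Pdk1, Pdk2 and Pdk4 did not pass in DN-SM against DN in any of the fits run. Pdk4 was at 20.6, 42.7 and 34.1 FPKM in DN-SM, a spread that enclosed all 3 DN libraries (29.1, 26.3 and 31.0 FPKM). Its log2 fold change was 0.27 (SE 0.214, edgeR adjusted p = 0.528) and ranged from 0.03 without DN-SM replicate 2 to 0.51 without DN-SM replicate 1. Pdk2 was at 284, 269 and 299.8 FPKM in DN-SM and at 311, 324 and 321 FPKM in DN. On the FPKM scale the groups did not overlap, while with TMM scaling, which corrects for the composition of the libraries, the log2 fold change was -0.07 (SE 0.105, adjusted p = 0.758). The 3 of 8 genes without overlap on the FPKM scale were Pdha1 and Dlat (higher) and Pdk2 (lower), and 32.7% of all genes tested did not overlap. Pdk1 was at 11.4, 15.3 and 15.9 FPKM in DN-SM (log2 fold change -0.11, SE 0.183, adjusted p = 0.788).

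The comparison of DN-SM with SHAM set stimulated injured muscle beside muscle with an intact nerve, and shares its libraries with the other two comparisons. Pdk4 was again the only gene of the 8 that passed, and it fell. Genes passing made up 0.839% of the 10129 tested, and 0.425% passed as lower. Pdk4 was at 20.6, 42.7 and 34.1 FPKM in DN-SM and at 71.0, 61.8 and 80.2 FPKM in SHAM, with no overlap (log2 fold change -1.11, SE 0.212, edgeR adjusted p = 0.0414), a level 53.7% lower in DN-SM. The direction held in all fits run, between -1.35 and -0.88, but the call was fragile. It was lost in 8 of the 9 fits with a library left out, the exception being the fit without DN-SM replicate 2, with adjusted p of 0.0507 without SHAM replicate 2, 0.109 without SHAM replicate 3 and up to 0.114 without DN-SM replicate 3. It was also lost in the fit of these 2 groups alone (adjusted p = 0.121) and by limma on log2(FPKM + 1) (adjusted p = 0.0549).

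Pdk2 was at 284, 269 and 299.8 FPKM in DN-SM against 422, 369.6 and 406 FPKM in SHAM, without overlap, and did not pass (log2 fold change -0.47, SE 0.105, edgeR adjusted p = 0.0665; -0.49 and adjusted p = 0.00034 by DESeq2, where 3.11% of genes with an adjusted p were called). Pdha1 lay higher in each DN-SM library than in any SHAM library, at 0.45 (SE 0.182, adjusted p = 0.317). Pdhx did so only narrowly, at 0.29 (SE 0.132, adjusted p = 0.391). Its lowest DN-SM library was at 29.48 FPKM and its highest SHAM library at 29.2 FPKM. These 4 of 8 genes did not overlap between DN-SM and SHAM, against 16.8% of all genes tested. Pdhb was at 0.23 (adjusted p = 0.401), Dlat at 0.21 (0.468), Pdp1 at 0.37 (0.491) and Pdk1 at -0.11 (0.846). The median of the 8 was 0.22, beside 0.02 for all genes tested.

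Set beside each other per length, the kinase transcripts were dominated by Pdk2. It made up 85.8% ± 3.82 of the FPKM summed over Pdk1, Pdk2, Pdk3 and Pdk4 in DN-SM, 87.3% ± 0.998 in DN and 82.1% ± 1.29 in SHAM (SD, n = 3). The share of Pdk4 was 6.51%, 13.0% and 9.73% in DN-SM, 8.20%, 7.16% and 8.32% in DN, and 13.8%, 13.9% and 15.98% in SHAM. Each DN library and each DN-SM library lay below the lowest SHAM library, with DN-SM replicate 2 closest to it. The difference in the mean share was -6.68 percentage points for DN minus SHAM and -4.82 for DN-SM minus SHAM. Each had an exact two-sided permutation p of 0.1, the smallest that 3 against 3 libraries allow (0.15 adjusted over 9 such tests). For DN-SM minus DN it was 1.86 percentage points (exact p = 0.5, adjusted p = 0.562). Pdk3, an isoform outside the 8 and the remaining kinase of mammals, stayed under 0.4% of the sum, with 7 to 28 expected counts per library. It was at 0.68, 0.83 and 0.68 FPKM in DN-SM, 0.94, 0.96 and 1.48 FPKM in DN and 0.40, 0.67 and 0.35 FPKM in SHAM (DN against SHAM log2 fold change 1.14, edgeR adjusted p = 0.0865). The summed kinase level was 332 ± 17.1 FPKM in DN-SM, 365 ± 9.28 in DN and 486 ± 38.0 in SHAM. These sums are not TMM-scaled. With TMM scaling Pdk2, the main part of the sum, was at -0.07 in DN-SM against DN (edgeR adjusted p = 0.758).

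**Figure D3:**
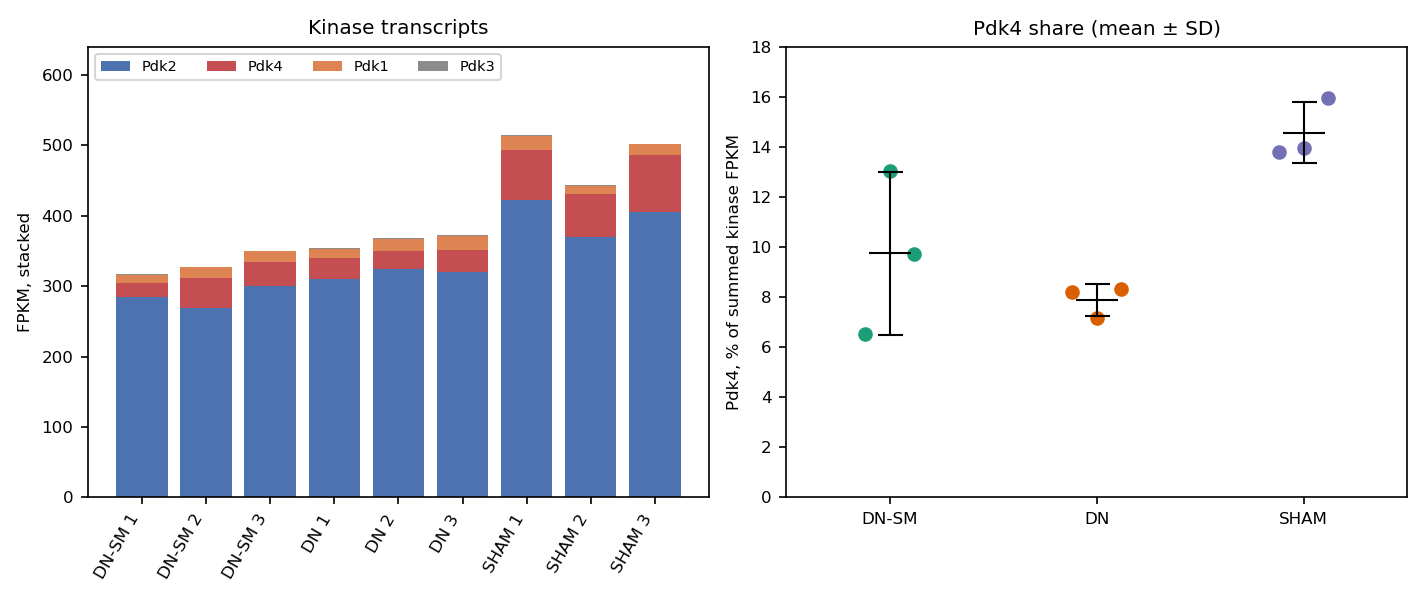
Left, FPKM of Pdk2, Pdk4, Pdk1 and Pdk3 stacked for each of the 9 libraries (bars start at 0). Right, Pdk4 as a percentage of that sum, with points for libraries and bars for the mean ± SD; SHAM lies at 13.8% to 15.98%, above the 8.32% reached in DN and the 13.0% reached in DN-SM.

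Of the phosphatases, Pdp1 supplied nearly all transcript. It made up 97.6% ± 0.637 of the FPKM summed over Pdp1 and Pdp2 in DN-SM, 96.1% ± 1.34 in DN and 96.9% ± 1.62 in SHAM (SD, n = 3). Pdp2 stayed between 0.32 and 1.10 FPKM and did not pass in any comparison (lowest edgeR adjusted p = 0.596). Summed kinase FPKM over summed phosphatase FPKM was 11.1, 12.2 and 16.7 in DN-SM, 19.9, 20.1 and 17.0 in DN, and 26.3, 17.2 and 34.6 in SHAM. The DN-SM libraries were the 3 lowest of the 9, although DN-SM replicate 3 lay close to DN replicate 3. On the log2 scale the difference was -0.53 for DN-SM minus DN and -0.93 for DN-SM minus SHAM, each with an exact permutation p of 0.1, the smallest possible (0.15 adjusted). For DN minus SHAM it was -0.40 (exact p = 0.3, adjusted p = 0.386).

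The level of the kinases relative to their substrate followed the same order of groups. Summed kinase FPKM over Pdha1 FPKM was 2.27, 2.32 and 2.499 in DN-SM, 4.87, 4.01 and 3.95 in DN, and 3.99, 3.74 and 7.48 in SHAM. DN-SM lay below every other library, and DN and SHAM overlapped. On the log2 scale the difference was -0.85 for DN-SM minus DN and -1.03 for DN-SM minus SHAM (exact permutation p = 0.1 each, the smallest possible, 0.15 adjusted), and -0.18 for DN minus SHAM (exact p = 0.9, adjusted p = 0.9), which was 0.14 without SHAM replicate 3. These are ratios of transcripts, and neither protein nor phosphorylation was measured.

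Ratios between subunits were also read per library. Pdha1 over Pdhb, a ratio chosen after the values were seen and not tested, was 1.11, 1.06 and 0.939 in DN-SM, 0.706, 0.742 and 0.705 in DN, and 0.955, 1.12 and 0.579 in SHAM. The DN libraries were close together, and SHAM spanned both other groups. Dlat over Pdhx, chosen in the same way, overlapped in all groups, at 1.61 to 1.96 in DN-SM, 1.47 to 1.86 in DN and 1.72 to 2.30 in SHAM.

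**Figure D4:**
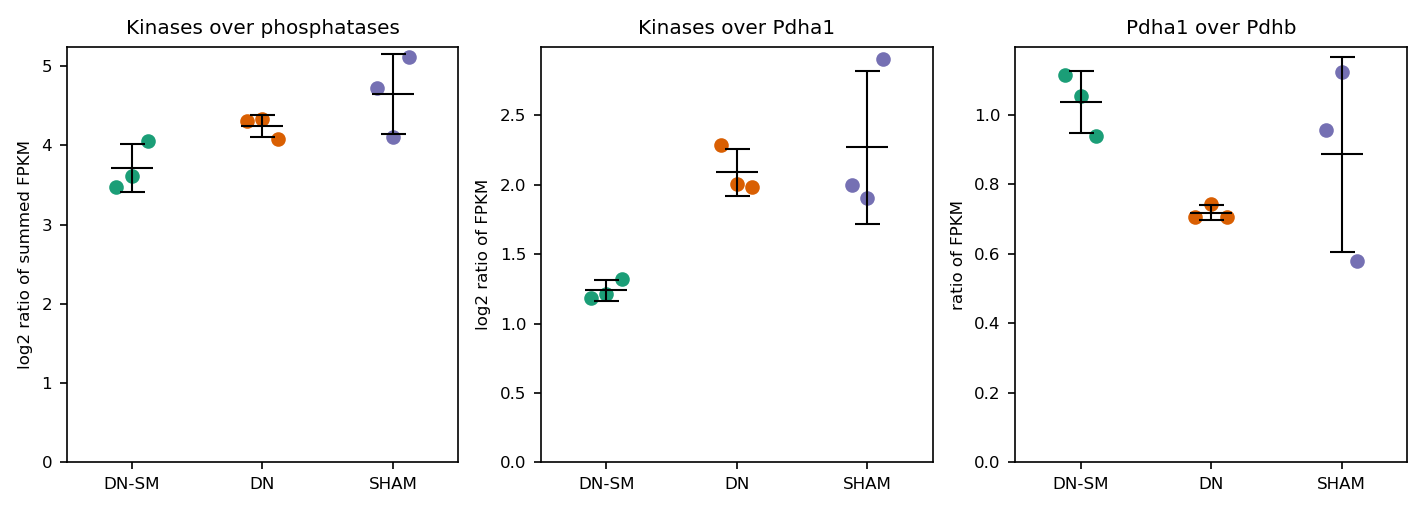
Ratios of FPKM in each library (points) with the mean ± SD (bars), for DN-SM, DN and SHAM; the first 2 panels are log2 ratios of summed kinase FPKM over summed Pdp1 and Pdp2 FPKM and over Pdha1 FPKM, and the last is the linear ratio of Pdha1 over Pdhb. DN-SM lies below DN and SHAM in the first 2 panels, and SHAM replicate 3 gives the highest SHAM point in both.

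Other genes of the complex and its cofactors, a list of 12, all tested, held no call in any of the 3 comparisons with edgeR, although 4 had an unadjusted p under 0.05 in DN against SHAM, 3 in DN-SM against DN and 1 in DN-SM against SHAM. Among all 10129 genes tested, an unadjusted p under 0.05 was found for 2256, 1784 and 1293 in these comparisons. Dld, the dihydrolipoamide dehydrogenase shared with the sister complexes, was at 33.9, 40.0 and 42.1 FPKM in DN-SM, 16.5, 21.2 and 21.5 FPKM in DN, and 38.8, 36.1 and 16.7 FPKM in SHAM. SHAM replicate 3 lay within the DN range and the other two SHAM libraries within the DN-SM range. The log2 fold change was 1.07 in DN-SM against DN (SE 0.246, edgeR adjusted p = 0.144; 0.00083 in the fit of DN-SM and DN alone, 0.00743 by DESeq2, 0.0381 without SHAM replicate 2 and 0.0038 without SHAM replicate 3). Of the 20 alternative fits, only these 4 called Dld in DN-SM against DN. In DN against SHAM the log2 fold change was -0.70 (adjusted p = 0.133) and, without SHAM replicate 3, -0.98 (adjusted p = 0.00206). In DN-SM against SHAM it was 0.37 (SE 0.242, adjusted p = 0.563). Mpc1, a subunit of the carrier that brings pyruvate into mitochondria, was at -0.25 in DN against SHAM (adjusted p = 0.176).

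Genes of pyruvate and lactate handling (12 in the list, 11 tested) and of the sister complexes for other 2-oxoacids (9 in the list, 8 tested) had no call in any comparison with edgeR. In DN against SHAM, 8 of the 11 pyruvate and lactate genes had an unadjusted p under 0.05, against 2256 of the 10129 genes tested, with a list median of -0.38 beside -0.01 for all genes. Pc, pyruvate carboxylase, which turns pyruvate into oxaloacetate, was at -0.41 in DN against SHAM (edgeR adjusted p = 0.0913). Me1, the malic enzyme of the cytosol, was at -0.70 in DN against SHAM (adjusted p = 0.0676) and at 0.71 in DN-SM against DN (0.151). Gpt2, the mitochondrial alanine transaminase, was at -0.80 (0.144) and 0.74 (0.234) in the same comparisons. The lactate dehydrogenase subunits Ldha and Ldhb were at -0.38 (0.224) and 0.42 (0.578) in DN against SHAM, and at 0.26 (0.438) and -0.73 (0.368) in DN-SM against DN. In DN-SM against DN, 5 of the 8 sister-complex genes had an estimate above 0, with a median of 0.19. The 3 with the lowest adjusted p, which all lay higher, were Dbt, the acyltransferase core of the branched-chain complex, at 1.12 (adjusted p = 0.144), Ppm1k, the phosphatase of that complex, at 0.56 (0.226), and its subunit Bckdhb at 0.29 (0.193). Ogdh and Bckdk, named here after their values were seen, lay lower in DN-SM without overlap, at -0.24 (0.363) and -0.27 (0.287).

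Genes that mark mitochondrial content gave a measure beside the subunits. Of 9, none passed in any comparison with edgeR, and an unadjusted p under 0.05 was found for 1 in DN against SHAM, 3 in DN-SM against DN and 2 in DN-SM against SHAM, beside 2256, 1784 and 1293 of all 10129 genes tested. Their median log2 fold change in DN-SM against DN was 0.20, and 7 of the 9 had an estimate above 0. Uqcrc2 of respiratory complex III was at 0.62 and Ndufs1 of complex I at 0.59 (adjusted p = 0.144 each), Tomm20 of the import pore was at 0.33 (0.211), and Cs, citrate synthase, at 0.14 (0.53). Cox4i1 lay lower in DN-SM without overlap, at -0.17 (0.484), and Atp5f1b was at -0.04 (0.741). The FPKM summed over the 9 genes overlapped, at 5290 to 5872 in DN-SM and 5358 to 6268 in DN.

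Regulators and companions of Pdk4 were read from lists of transcription factors known to act on it and of other PPAR and FoxO targets. Of 9 regulators, none passed in DN-SM against DN, and 1 fell in both comparisons with SHAM. Of all genes tested, 1.7% passed as lower in DN against SHAM and 0.425% in DN-SM against SHAM. The regulator that fell was Rxra, the retinoid receptor that pairs with PPARs. It was at 43.9, 46.2 and 32.4 FPKM in DN-SM, 50.3, 50.7 and 44.1 FPKM in DN, and 70.4, 65.3 and 74.9 FPKM in SHAM. All injured libraries lay below all SHAM libraries, with log2 fold changes of -0.61 in DN against SHAM (edgeR adjusted p = 0.0424) and -0.76 in DN-SM against SHAM (0.0414). The glucocorticoid receptor gene Nr3c1 was at -0.69 (0.237) and Foxo1 at -0.83 (0.247) in DN against SHAM. Of 12 tested PPAR and FoxO targets, 2 fell in both comparisons with SHAM (Ucp3 and Fbxo32), beside the same shares of all genes. None passed in DN-SM against DN. Ucp3, the muscle uncoupling protein, was at 7.99, 14.1 and 6.36 FPKM in DN-SM, 11.9, 18.4 and 13.4 FPKM in DN, and 34.5, 34.9 and 63.8 FPKM in SHAM (-1.70 in DN against SHAM, adjusted p = 0.0379; -2.22 in DN-SM against SHAM, 0.039). Fbxo32, a ubiquitin ligase of muscle wasting, was at -1.40 (0.0232) and -1.69 (0.029) in these comparisons. Trim63, the other wasting ligase in the list, was at -0.36 (0.173) and -0.37 (0.313). The medians of this list were 0.02 in DN against SHAM and 0.10 in DN-SM against SHAM. The calls of Rxra, Ucp3 and Fbxo32 were each lost in 7 to 12 of the 20 other fits of a comparison. Without SHAM replicate 2 the adjusted p in DN against SHAM was 0.0808 for Rxra, 0.108 for Ucp3 and 0.0568 for Fbxo32, and in DN-SM against SHAM 0.0647 for Ucp3. Without SHAM replicate 3 it was 0.0957 for Rxra and 0.0589 for Ucp3 in DN-SM against SHAM.

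**Figure D5:**
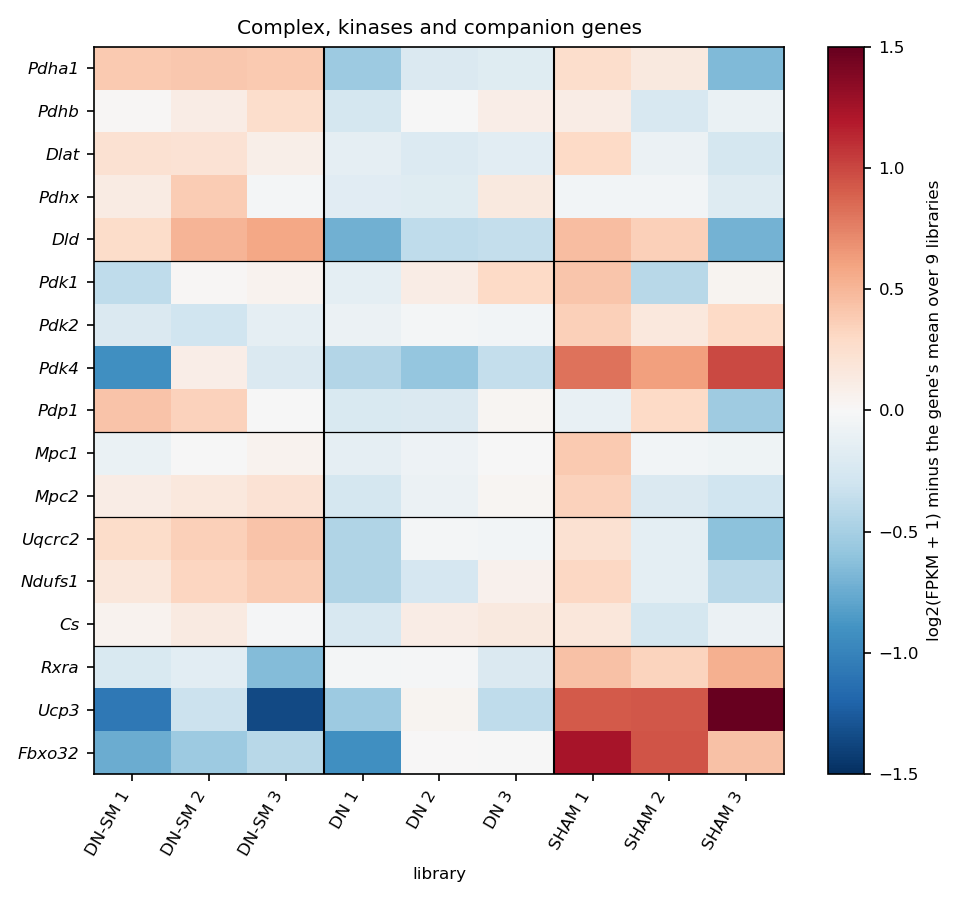
Colour gives log2(FPKM + 1) minus the gene's mean over the 9 libraries, for genes of the complex with Dld, the kinases and Pdp1, the pyruvate carrier, mitochondrial genes, and Rxra, Ucp3 and Fbxo32 (rows, from top) in each library (columns). Pdk4, Rxra, Ucp3 and Fbxo32 are red in all 3 SHAM libraries, and Pdha1 and Dld are blue in the 3 DN libraries and SHAM replicate 3.

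The genes most like Pdk4 over the 9 libraries were found by the root mean square difference of log2(FPKM + 1) after each gene's own mean was removed, among 5406 other genes with a mean of at least 5 FPKM. The 5 nearest were Mylk2, which phosphorylates myosin light chains in muscle, at 0.332, Wnk2, a kinase of the WNK family, at 0.354, Hk2, the hexokinase of muscle, at 0.36, Det1 at 0.371, and a gene without a symbol (gene ID 140582) at 0.373. Pdk4 itself varied by 0.632 about its own mean on this scale. Each of the 5 passed as lower in DN against SHAM, a comparison whose libraries also chose them. For Pdha1 the 5 nearest were Phospho2, Hnrnpm, Usp14, Hibch and Hnrnpa2b1, at 0.0938 to 0.12 against 0.391 for the variation of Pdha1 itself. In each of these 5, as in Pdha1, the mean was highest in DN-SM and lowest in DN. The same libraries chose these genes, so the shared order is no separate finding.

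Markers of other cell types moved in the same comparisons. The FPKM summed over 6 Schwann cell markers was 55.4 to 135 in DN-SM, 99.7 to 251 in DN and 39.2 to 44.8 in SHAM, and 2 of the 6 rose in DN against SHAM, where 2.57% of all genes tested passed as higher. The sum over 6 endothelial markers was 107 to 117 in DN-SM, 117 to 153 in DN and 81.2 to 96.4 in SHAM. Most of this sum was Pecam1 and Cdh5. Of the 6, 2 rose in DN against SHAM and 1 in DN-SM against SHAM, where 0.415% of all genes tested passed as higher. The estimate was above 0 for 5 of the 6 in DN against SHAM and for 3 in DN-SM against SHAM. In the latter, Kdr was at -0.52 (edgeR adjusted p = 0.149), Vwf at -0.14 (0.787) and Tek at -0.04 (0.925). The other lists had no call. Sums in DN-SM, DN and SHAM were 93.8 to 123.5, 96.9 to 136 and 72.7 to 86.1 for 6 adipocyte markers, of which 4 were tested, and 321 to 469, 486 to 696 and 331 to 834 for 6 fibroblast markers. They were 9.45 to 12.0, 9.73 to 14.8 and 7.27 to 15.3 for 6 macrophage and leukocyte markers, and 2107 to 8793, 2678 to 6631 and 5267 to 8739 for 4 erythrocyte genes. The summed level of 8 fibre genes was 139825 to 141038 FPKM in DN-SM, 126234 to 145362 in DN and 119883 to 131079 in SHAM. Most of this sum was Acta1 and Ckm. The fast myosin gene Myh4 lay lower in DN than in SHAM without overlap, at -2.11 (edgeR adjusted p = 0.0625), where 5 of the 8 had an estimate above 0. SHAM replicate 2 stood out, with Myh4 at 6969 FPKM beside 1752 and 2331 FPKM in SHAM replicates 1 and 3. In DN-SM against DN Myh4 lay higher without overlap, at 1.37 (0.233), and 5 of the 8 had an estimate above 0. Most of the adipocyte sum was Fabp4, at 70.2 to 129 FPKM. In DN-SM against SHAM Fabp4 had a log2 fold change of 0.55 (edgeR adjusted p = 0.0941). The other tested adipocyte markers lay the other way, Adipoq at -0.74 (0.709), Plin1 at -0.89 (0.643) and Cidec at -0.25 (0.919). The adipocyte gene Lep was listed at 0 in some DN-SM and SHAM libraries. The part of these markers in the levels of Pdk4 and the other 7 genes was not tested.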

How the data were processed

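RNA of 9 rat gastrocnemius libraries was sequenced. Per the file headers, each library's file lists genes with an expected count and an FPKM value, both deposited by the authors beside transcript lengths. The submitters' processing notes name HISAT2, RSEM, GATK and build rn6 without roles, and versions are not given in the sources used here. Strand settings are not given either, so overlapping antisense genes were not separated.

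Of the expected counts, 11.56% were not whole, and they were rounded for testing. A gene ID not listed in a library counted as 0 there. RefSeq symbols were matched by gene ID for 13649 of 13752 IDs and by transcript accession for 7, and 96 had none. Genes were kept by filterByExpr (minimum count 10, minimum total 15), scaled by TMM and tested over all 9 libraries with edgeR 4.0.16 (R 4.3.3), the quasi-likelihood test and Benjamini-Hochberg adjustment over all 10129 genes. A gene was called at an adjusted p under 0.05. Alternatives were other scalings, filters, limma 3.58.1, DESeq2 1.42.0, fits of 2 groups and libraries left out in turn. Ratios of FPKM were tested by exact permutation. Only the edgeR fit was tried on simulated counts, for DN against SHAM.

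Named genes were the 8 genes themselves, the 3 of each list with the lowest adjusted p, Dld, Pdk3, Pdp2, Ldha and Ldhb, and the 5 genes nearest to Pdk4 and to Pdha1. Cs, Cox4i1, Atp5f1b, Ogdh and Bckdk were added to those after the values were seen, as were the ratios Pdha1 over Pdhb and Dlat over Pdhx. Of the cell type markers, Csf1r, Cd68, Fabp4, Adipoq, Plin1, Cidec, Pecam1, Cdh5, Kdr, Vwf, Tek and Myh4 were also named with the values known. The 8 genes and the lists were chosen with earlier results of these data known. Promoters are on GRCr8, so no position was joined to the rn6 files.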

Additional observations from a re-analysis of the deposited data

How the results depend on the processing

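Over 20 alternatives to the 24 log2 fold changes of the 8 genes, 436 of 480 values kept direction and side of the threshold, 14 lost a call, 11 gained one and 19 changed sign. The cause of these changes was not tested.

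In DN against SHAM, where 432 genes and 1 of the 8 were called, DESeq2 called 770 and 2. Limma called 275 genes on log2(FPKM + 1), 243 with a pseudocount of 0.1 and 112 without a filter, the fit of 2 groups 156, and fits with a library left out 58 (without DN replicate 3) to 1183 (without SHAM replicate 3), with 0 to 2 of the 8. In DN-SM against DN, where 1 gene and 0 of the 8 were called, DESeq2 called 222 and 2, the fit of 2 groups 716 and 3, limma with a pseudocount of 0.1 called 0 genes, and fits with a library left out 0 (without SHAM replicate 1) to 416 (without SHAM replicate 3), with 0 to 2 of the 8. In DN-SM against SHAM, where 85 genes and 1 of the 8 were called, DESeq2 called 266 and 2. Limma called 42, 43 and 12 genes in the same order of settings, the fit of 2 groups 28, and each of these called 0 of the 8. Fits with a library left out called 15 to 137 genes and 0 to 1 of the 8.

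Most changes of sign concerned estimates near 0. Larger moves in DN against SHAM were those of Pdp1, from -0.15 to 0.16 without SHAM replicate 2, and of log2 kinase over Pdha1, from -0.18 to 0.14 without SHAM replicate 3. In DN against SHAM, Pdk1 (-0.01) was at 0.00859 with upper-quartile factors, 0.0776 by limma and 0.0838 by limma with a pseudocount of 0.1. Limma gave 0.0168 and 0.0169 for Pdhb and 0.0197 and 0.0202 for Pdhx with these pseudocounts, and leaving out the filter did not move them. With a library left out, DN against SHAM ranged from -0.18 to 0.13 for Pdk1, -0.10 to 0.00919 for Pdhb, -0.12 to 0.0132 for Pdhx, -0.33 to 0.16 for Pdp1 and -0.36 to 0.14 for log2 kinase over Pdha1. Pdk1 ranged from -0.19 to 0.0278 in DN-SM against DN and from -0.28 to 0.0288 in DN-SM against SHAM. The median of all genes moved beyond 0.1 only in limma with a pseudocount of 0.1, at -0.11 in DN-SM against DN.

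Libraries with the same replicate number showed little shared deviation (correlations -0.0484 to 0.109, and 2 of 9 libraries correlated best with their own number). The labels do not say what the numbers mark, and 3 libraries per group are too few to show a small shared effect. A replicate block gave 317 called genes in DN against SHAM, 1 in DN-SM against DN and 39 in DN-SM against SHAM, with 0 of the 8 in the last (Pdk4 adjusted p = 0.0611 by edgeR). Pdk3 and Pdp2, at 6 to 28 expected counts per library, are too shallow for small changes to be detectable, and 3 libraries per group limit every test.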
